A study of Homo sapiens with 18 samples.

Results

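The clustered protocadherins are cell surface adhesion proteins encoded side by side on the long arm of human chromosome 5, in an alpha, a beta and a gamma cluster. Their members were taken as the gene symbols in the count tables that start with PCDHA, PCDHB or PCDHG and go on with the member's number or letter. This rule found 57 of the 27130 symbols, of which 15 were alpha, 19 beta and 23 gamma members. The gamma members were 12 PCDHGA, 8 PCDHGB and 3 PCDHGC genes. PCDHAC1, PCDHAC2, PCDHGC3, PCDHGC4 and PCDHGC5 are the 5 C-type members, and the names PCDHB17P, PCDHB18P, PCDHB19P and PCDHGB8P mark 4 pseudogenes.

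Polyadenylated RNA was sequenced in 18 libraries. They were made from the human embryonic stem cell lines H1 and H9 and from clones in which ZNF263, which codes for a zinc finger transcription factor, had been knocked out with Cas9. The stated question is what ZNF263 does in pluripotency. Replicated groups of 3 libraries each were H1 clone 1-10 (homozygous knockout) and H1 wild type, and H9 clones 9-1 and 9-D (both homozygous knockouts) and H9 wild type. A further H1 set had 1 library each of clone 1-5 (heterozygous knockout), clone 1-10 and wild type. Each knockout group is a single clone, so an effect of the knockout and a trait of the clone cannot be told apart. The labels state neither the edited part of ZNF263, nor a batch, nor whether replicates were separate cultures, and p-values here measure only the spread between these libraries.

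In the alpha and gamma clusters each member starts from its own promoter and its own large first exon, which codes for the extracellular cadherin repeats, and is spliced to constant exons that all members of the cluster share. Beta members have a first exon of the same kind and no shared constant exons. Neurons are the cells best known for these genes: each neuron expresses a small set of them, and homophilic binding between matching sets lets a neuron tell its own branches from those of others. Expression of a member is tied to the methylation of its promoter and to CTCF, an architectural DNA-binding protein that joins active promoters to distant enhancers.

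The promoters of the members are shown because isoform choice is made there. RefSeq (GRCh38.p14) gave a window from 250 bases before to 50 bases after the start for 47 of the 57 members. The letters CGCT, the core of a conserved element of most of these promoters, were searched on the gene strand. They stood in a window of 46 of the 47, all but PCDHA9. Some members had more than 1 window. Counted by window, the letters stood in 51 of 52 member windows and in 54.3% of all 35116 RefSeq windows of that length. So short a match does not by itself show the element. Between 100 bases and 1 base before the start they stood in 44 of the 47 members, all but PCDHA9, PCDHB8 and PCDHGB2. By window this was 44 of 52 member windows, beside 28.1% of all windows. Each of the following 40-base stretches is on the plus strand of chromosome 5, with CGCT in capitals and 18 bases on either side. Where a member had more than 1 CGCT, the stretch most like that of PCDHGA10 was picked, so likeness among them is partly a result of this choice. The first 7 come from neighbouring gamma members, some of which rose and some of which fell in the H9 clones, from PCDHGB4 at chr5:141387615-141387654 to PCDHGB7 at chr5:141417605-141417644.
PCDHGB4: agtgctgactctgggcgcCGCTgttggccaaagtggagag
PCDHGA8: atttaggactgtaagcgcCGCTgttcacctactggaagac
PCDHGB5: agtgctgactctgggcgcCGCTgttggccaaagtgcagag
PCDHGA9: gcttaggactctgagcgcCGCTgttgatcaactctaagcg
PCDHGB6: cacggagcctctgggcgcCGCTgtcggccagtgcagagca
PCDHGA10: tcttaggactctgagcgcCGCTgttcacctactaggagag
PCDHGB7: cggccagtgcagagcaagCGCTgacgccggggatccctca

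Some of the gamma stretches are close to each other in their letters. Compared base by base without gaps, PCDHGA10 was identical to PCDHGA8 at 33 and to PCDHGA9 at 32 of 40 bases, and PCDHGB4 to PCDHGB5 at 39 of 40. The PCDHGB7 stretch was identical to that of PCDHGA10 at 7 of 40 bases, so its CGCT may not belong to the same element. PCDHGA10 fell in both H9 clones. PCDHGA8 rose in clone 9-1, a call that was lost with DESeq2 (adjusted p = 0.0941) and not made in clone 9-D. Whether the letters of a promoter bear on these changes was not tested. The next stretches are those of the C-type genes PCDHGC3 and PCDHGC4, which fell in the H9 clones, and of beta members that rose (PCDHB3, PCDHB5, PCDHB12) or fell (PCDHB9, PCDHB16) there. PCDHB5 and PCDHB16 were identical at 31 of 40 bases, as were PCDHB12 and PCDHB16.
PCDHGC3: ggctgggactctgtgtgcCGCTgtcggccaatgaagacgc
PCDHGC4: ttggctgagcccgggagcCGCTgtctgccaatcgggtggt
PCDHB3: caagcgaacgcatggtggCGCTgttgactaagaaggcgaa
PCDHB5: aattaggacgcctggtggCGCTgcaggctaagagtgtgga
PCDHB12: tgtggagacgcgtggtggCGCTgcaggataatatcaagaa
PCDHB9: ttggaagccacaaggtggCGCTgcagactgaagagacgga
PCDHB16: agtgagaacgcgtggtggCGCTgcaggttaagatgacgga

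Of the alpha members, PCDHA11 led its cluster in every replicated group and PCDHA6 differed most between the wild types. The stretch of PCDHA11 lies at chr5:140868881-140868920 and that of PCDHA6 at chr5:140827895-140827934. The letters GGGAGGA, a core of the sequence ZNF263 is known to bind, were searched on both strands. They stood in the windows of 4 of the 47 members (PCDHB15, PCDHB16, PCDHGB3 and PCDHGC4). By window this was 4 of 52 member windows, beside 18.1% of all windows. The PCDHGA10 window held CGCT and no GGGAGGA. A match of letters is only a description of the window.
PCDHA11: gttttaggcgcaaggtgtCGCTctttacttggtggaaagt
PCDHA6: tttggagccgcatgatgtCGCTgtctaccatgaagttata

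Library totals were 9663550 to 21007799 counts. A count of 0 allows a level of up to 3 counts, which came to 0.143 CPM (counts scaled to a common library total) in the largest library and to 0.31 CPM in the smallest. The members together took 364.6 to 442.5 CPM of a replicated library's total. Replicates of a group differed by more than counting error, with a chi-square per gene of 1.83 to 5.94 over 15 pairs. ZNF263, the targeted gene, stood at 32.7 to 36.3 CPM in clone 1-10, against 39.8 to 42.3 CPM in H1 wild type, and at 34.3 to 37.1 CPM in clone 9-1 and, in clone 9-D, 35.2 to 37.5 CPM, against 39.6 to 44.1 CPM in H9 wild type. Since the edited part is not stated, this RNA level does not check the genotypes. All 8 pluripotency markers were detected in every group, with summed levels of 8601 to 9004 CPM in clone 1-10, against 7776 to 8253 CPM in H1 wild type, and of 7722 to 7920 CPM in clone 9-1 and, in clone 9-D, 7846 to 7999 CPM, against 6514 to 6674 CPM in H9 wild type. Of these 8 markers 2 rose in clone 1-10 and 6 in each H9 clone, and none fell (edgeR adjusted p under 0.05), beside 5.01% of all genes that rose in clone 1-10, 12.8% in clone 9-1 and 11.5% in clone 9-D. The 14 neural markers summed to 818 to 898 CPM in clone 1-10, against 826 to 872 CPM in H1 wild type, and to 891 to 958 CPM in clone 9-1 and, in clone 9-D, 879 to 942 CPM, against 777 to 829 CPM in H9 wild type. Of 10 neural markers tested in clone 1-10, 0 rose and 3 fell. Of 9 tested in each H9 clone, 2 rose and 3 fell in clone 9-1, and 2 rose and 1 fell in clone 9-D. The median log2 fold change of the neural markers was -0.44 in clone 1-10, -0.24 in clone 9-1 and -0.11 in clone 9-D. Of all genes tested, 7.25% fell in clone 1-10, 13.5% in clone 9-1 and 12% in clone 9-D. ELAVL4, a neuronal RNA-binding protein, was at 0 in clone 9-1 and H9 wild type. The 9 fibroblast and feeder markers summed to 578 to 695 CPM in clone 1-10, against 620 to 655 CPM in H1 wild type, and to 750 to 825 CPM in clone 9-1 and, in clone 9-D, 846 to 921 CPM, against 834 to 878 CPM in H9 wild type. Of 6 of these markers tested, 0 rose and 3 fell in clone 1-10. In clone 9-1, 2 rose and 3 fell, and in clone 9-D 2 rose and 2 fell. Their median log2 fold change was -0.37 in clone 1-10, -0.33 in clone 9-1 and -0.14 in clone 9-D. LUM was at 0 in clone 9-1 and DCN in clone 9-D and H9 wild type. Their part in the results on protocadherins was not tested. In bulk RNA, fewer cells expressing a member and less of its RNA per cell cannot be told apart.

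Reads from exons that several members share limit what a member's count means. In the GENCODE annotation (GRCh38) the shared coding sequence was 456 bases in the alpha and 372 bases in the gamma cluster, each in 3 stretches, beside medians of 2442 and 2460 bases specific to a member. How reads in the shared exons were assigned is not given in the sources used here. Reads credited to every member of a cluster at once cannot exceed the lowest member's count, which was 4 to 21 counts for alpha and 0 to 13 counts for gamma per replicated library, beside 244 to 762 and 214 to 453 counts for the highest member. The lowest gamma count was taken over all gamma members, among them the pseudogene PCDHGB8P, which has none of the shared sequence. Where PCDHGB8P was the lowest, its count does not limit reads shared by the other members. Sequence that members have in common is the other limit. Of the 50-base stretches specific to a gene, 58% in PCDHGB4, 49.3% in PCDHB8, 37.2% in PCDHGA8 and 35.4% in PCDHB10 also occur in another gene, so the values of these members are uncertain. The same share was 6.2% in PCDHGA10, 12.3% in PCDHB5, 0.1% in PCDHGC3 and PCDHGC4, and 0.0% in PCDHGC5. Such shares need not all be likeness between separate exons. PCDHGB4 had 4722 of these stretches but 2459 exon bases specific to it, and PCDHGA8 had 6477 but 4214. The exons annotated to these neighbours therefore appear to overlap. Reads from bases annotated to both genes cannot be told apart, and how they were counted is not given. Other members also had more of these stretches than exon bases specific to them. Among them were PCDHA10, with 12396 stretches and 9555 bases, and PCDHB16, with 4998 and 3754.

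The leading member was the same in all replicated groups for the alpha cluster and differed between them for the beta and gamma clusters. Shares are given per length, as each member's counts divided by the coding bases specific to it. They are percentages of the sum over the cluster, with pseudogenes left out. Other exon bases, in which members differ more, do not enter this length. PCDHA11 led the alpha cluster in every replicated group, at 25.8% ± 0.949 in clone 1-10, against 21.99% ± 2.801 in H1 wild type (SD, n = 3 for this and all further groups). In H9 it made up 29.9% ± 0.989 in clone 9-1 and 25.99% ± 0.878 in clone 9-D, against 27.3% ± 1.34 in H9 wild type. By mean share, the beta cluster was led by PCDHB5 in clone 1-10 (28.6% ± 0.819) and by PCDHB2 in H1 wild type (26.7% ± 1.53), clone 9-1 (31.04% ± 1.09), clone 9-D (29.8% ± 2.59) and H9 wild type (35.3% ± 1.05). The order in H1 wild type was not the same in every library. PCDHB5 was ahead of PCDHB2 in replicate 2, with 25.96% against 25.66%. In the single H1 wild-type library it was ahead too, with 30.99% against 27.65%. The gamma cluster had 3 different leaders. PCDHGA10 led in clone 1-10 (21.6% ± 0.366) and H1 wild type (20.5% ± 1.26), PCDHGB4 in clone 9-1 (19.4% ± 1.05) and clone 9-D (19.8% ± 1.84), and PCDHGC3 in H9 wild type (18.6% ± 1.17). In clone 9-D replicate 1, PCDHGC3 was above PCDHGB4 before division by length.

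**Figure D1:**
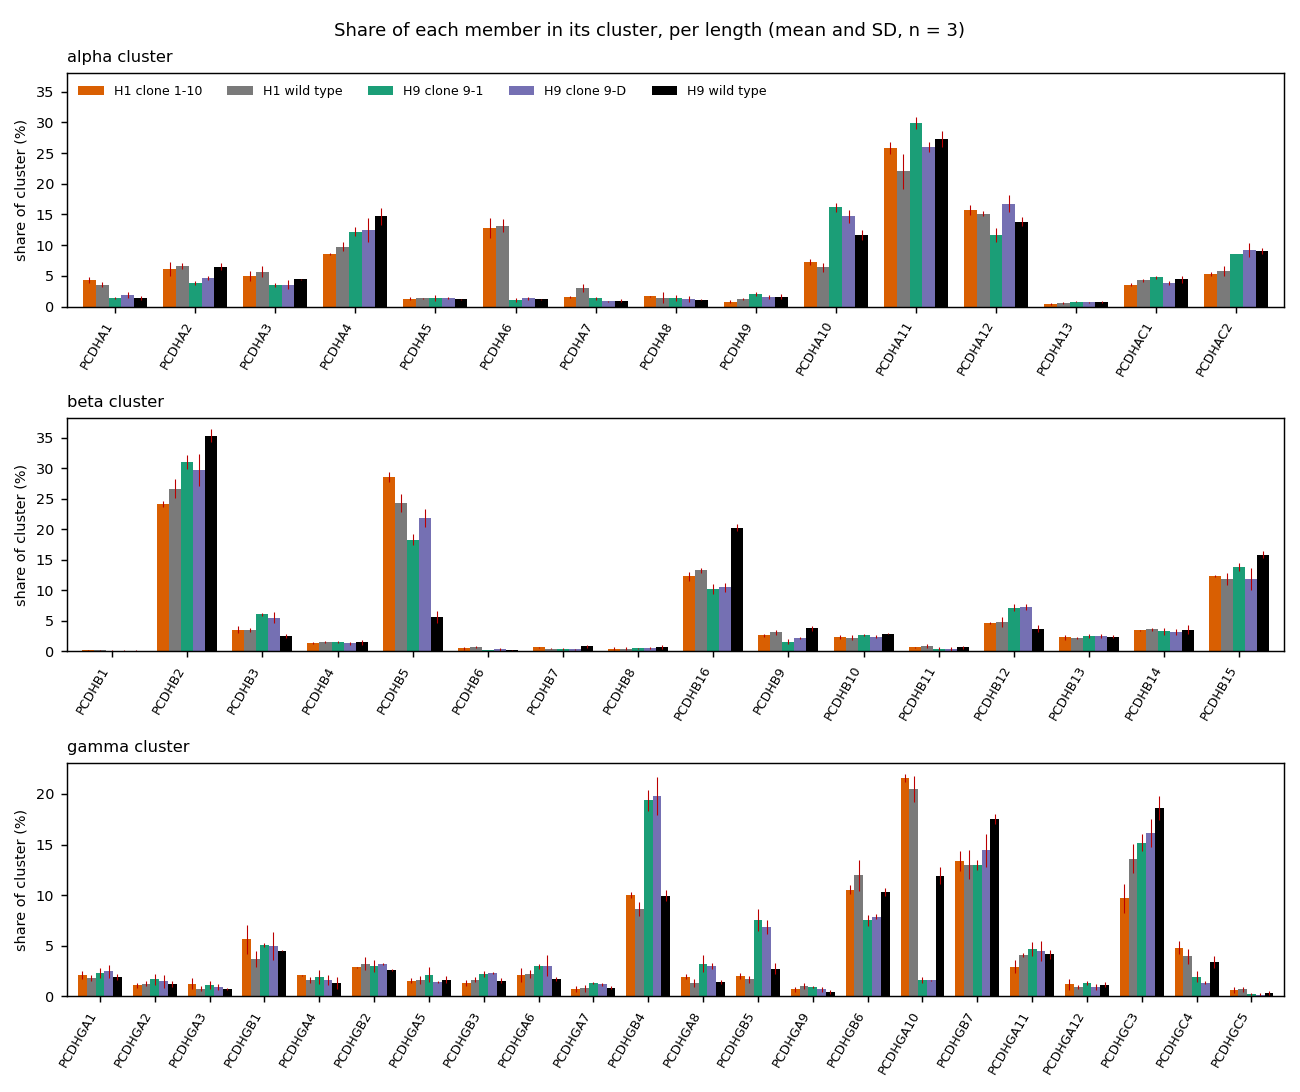
Share of each coding member in the summed level of its cluster, in percent and per length, for H1 clone 1-10 (orange), H1 wild type (grey), H9 clone 9-1 (green), H9 clone 9-D (violet) and H9 wild type (black). Bars are means and lines SD over 3 libraries, members run in order along the chromosome, and PCDHGA10 goes down to 1.58% ± 0.278 in clone 9-1 and 1.58% ± 0.08403 in clone 9-D, against 11.9% ± 0.844 in H9 wild type.

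The order just below the leaders also differed between groups. In the alpha cluster of clone 1-10, PCDHA12 (15.8% ± 0.818) and PCDHA6 (12.8% ± 1.66) came next, as they did in H1 wild type (15.1% ± 0.369 and 13.2% ± 1.11). PCDHA6 made up 1.06% ± 0.302 of the alpha level in clone 9-1, 1.31% ± 0.316 in clone 9-D and 1.16% ± 0.0379 in H9 wild type, where PCDHA4, PCDHA12 and PCDHA10 followed PCDHA11 instead. PCDHA10 made up 16.1% ± 0.7795 in clone 9-1 and 14.7% ± 1.09 in clone 9-D, against 11.7% ± 0.801 in H9 wild type. In the beta cluster, PCDHB16 made up 10.2% ± 0.816 in clone 9-1 and 10.5% ± 0.779 in clone 9-D, against 20.3% ± 0.5499 in H9 wild type. PCDHB5 took 18.3% ± 0.9499 of the beta level in clone 9-1 and 21.8% ± 1.48 in clone 9-D, against 5.68% ± 0.956 in H9 wild type. Neighbours in the order were close in H9 wild type, where the libraries' shares overlapped between PCDHGC3, at 18.6% ± 1.17, and PCDHGB7, at 17.5% ± 0.515. They also overlapped in H9 wild type for PCDHA4, at 14.7% ± 1.43, and PCDHA12, at 13.8% ± 0.716, and in clone 9-1, where they had 12.2% ± 0.665 and 11.7% ± 1.15. PCDHB1 and PCDHGC5 were at the bottom, with 13 and 33 counts summed over the libraries of clone 1-10, 14 and 33 in H1 wild type, 10 and 9 in clone 9-1, 7 and 7 in clone 9-D, and 11 and 22 in H9 wild type.

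An effective number of members, the inverse of the summed squares of the shares, says how evenly a cluster was used. For beta it was 5.84 ± 0.215 in clone 9-1 and 5.78 ± 0.329 in clone 9-D, against 4.98 ± 0.111 in H9 wild type, and the libraries of both clones lay above those of wild type. The 3 leading beta members held 63.2% ± 0.851 of the beta level in clone 9-1 and 63.4% ± 1.42 in clone 9-D, against 71.4% ± 0.413 in H9 wild type. In H1 the beta number was 5.64 ± 0.1203 in clone 1-10, against 5.9002 ± 0.213 in wild type. There the clone libraries lay below those of wild type, the opposite direction to H9. For alpha it was 7.49 ± 0.0436 in clone 1-10, against 8.46 ± 0.689 in H1 wild type. In H9 the alpha number was 6.33 ± 0.138 in clone 9-1 and 6.77 ± 0.0312 in clone 9-D, against 6.83 ± 0.237 in wild type. The alpha libraries of clones 1-10 and 9-1 lay below those of their wild types, while clone 9-D overlapped with wild type. Gamma was spread over 9.46 ± 0.2602 members in clone 1-10, against 9.26 ± 0.321 in H1 wild type. In H9 it was spread over 10.01 ± 0.565 in clone 9-1 and 9.27 ± 0.432 in clone 9-D, against 9.21 ± 0.4399 in wild type. For gamma, every clone overlapped with the wild type of its line. No test was made on shares, and 3 libraries against 3 cannot reach an exact two-sided permutation p under 0.1.

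The gamma cluster as a whole was lower in both H9 clones. Its summed level was 88.6 ± 2.95 CPM in clone 9-1 and, in clone 9-D, 86.3 ± 2.897 CPM, against 125 ± 6.59 CPM in H9 wild type, with no overlap between the libraries of either clone and those of wild type. PCDHGA10 accounted for a difference of -13.7 CPM in clone 9-1 and, in clone 9-D, -13.7 CPM, out of -36.1 and -38.5 CPM for the whole cluster. PCDHGB7 differed by -9.999 and -9.09 CPM and PCDHGC3 by -9.97 and -9.38 CPM, while PCDHGB4 was 4.69 and 4.66 CPM higher. The alpha sum stayed close to level in H9, at 118 ± 2.92 CPM in clone 9-1 and, in clone 9-D, 118 ± 3.001 CPM, against 118 ± 2.29 CPM in wild type. The beta sum was 169 ± 2.77 CPM in clone 9-1 and, in clone 9-D, 182 ± 9.11 CPM, against 175 ± 3.796 CPM in H9 wild type, and the groups overlapped. In H1 the beta sum was 193 ± 5.78 CPM in clone 1-10, against 165 ± 1.55 CPM in wild type, with no overlap. The other H1 sums were 107 ± 4.57 CPM in clone 1-10, against 100.3 ± 2.28 CPM in wild type, for alpha, and 115 ± 4.998 CPM in clone 1-10, against 113 ± 2.42 CPM in wild type, for gamma.

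**Figure D2:**
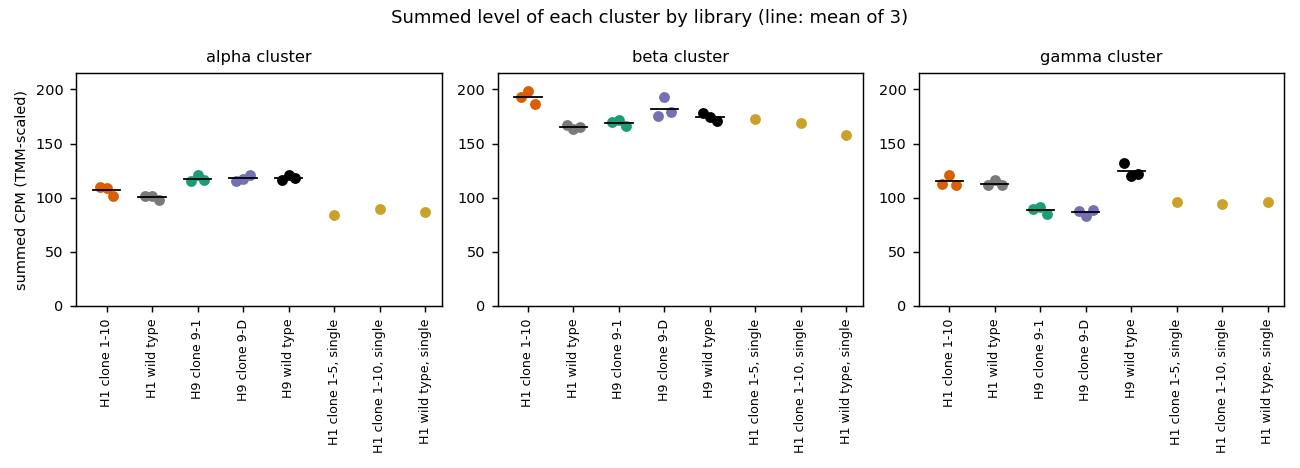
Summed level of the alpha, beta and gamma members in every library, in TMM-scaled CPM, with 1 point per library and a line at the mean of 3. The 3 single H1 libraries at the right were scaled apart from the other 15, so their height is not comparable with them, and in the gamma panel all points of clones 9-1 and 9-D lie under those of H9 wild type.

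In H1, ZNF263 clone 1-10 differed from wild type in few members. PCDHB5, PCDHB15 and PCDHA11 rose and PCDHA7 and PCDHGC3 fell, which made 5 of 54 tested members called at an edgeR adjusted p under 0.05, or 9.3%, beside 12.3% of all 14897 genes tested. By direction, 5.01% of all genes rose and 7.25% fell. The median log2 fold change of the 54 members was 0.09, beside 0.00 over all genes tested. PCDHA13, PCDHB1 and PCDHGC5 had counts too low to be tested. Of the 5 calls, that on PCDHB5 alone held in every alternative tried.

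PCDHB5 stood at 54.9, 54.4 and 54.1 CPM in clone 1-10, against 37.7, 42.003 and 39.01 CPM in H1 wild type. All clone libraries lay above all wild-type libraries, and the log2 fold change was 0.45 (SE 0.07, edgeR adjusted p = 2.69e-05). PCDHA11 stood at 27.3, 29.03 and 25.7 CPM in clone 1-10, against 25.4, 20.4 and 20.05 CPM in H1 wild type. The groups did not overlap, and the log2 fold change was 0.33 (SE 0.10, edgeR adjusted p = 0.0211). PCDHB15 stood at 23.3, 24.3 and 22.4 CPM in clone 1-10, against 21.2, 18.5 and 18.1 CPM in H1 wild type. Here too the groups did not overlap, and the log2 fold change was 0.28 (SE 0.09, edgeR adjusted p = 0.0483).

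PCDHA7 stood at 1.42, 1.81 and 1.48 CPM in clone 1-10, against 2.56, 3.71 and 2.46 CPM in H1 wild type. The clone libraries were all below the wild-type libraries, at a log2 fold change of -0.89 (SE 0.26, edgeR adjusted p = 0.0217). PCDHGC3, a C-type member that in mice promotes dendrite branching of cortical neurons, was the only gamma member called. PCDHGC3 stood at 11.5, 13.8 and 9.39 CPM in clone 1-10, against 14.6, 15.5 and 17.6 CPM in H1 wild type. No clone library reached the lowest wild-type library, and the log2 fold change was -0.44 (SE 0.12, edgeR adjusted p = 0.0156). Every H1 call but that on PCDHB5 was lost when single libraries were left out. The call on PCDHA11 was lost with any 1 of clone 1-10 replicates 1 and 2 and H1 wild-type replicates 2 and 3 left out (edgeR adjusted p 0.0568 to 0.143), and that on PCDHA7 with any 1 of clone 1-10 replicates 1 and 3 and H1 wild-type replicate 2 left out (edgeR adjusted p 0.0538 to 0.153). The call on PCDHB15 was lost with any 1 of clone 1-10 replicates 1, 2 and 3 and H1 wild-type replicates 2 and 3 left out (edgeR adjusted p 0.0642 to 0.206), and that on PCDHGC3 with any 1 of clone 1-10 replicates 1 and 3 and H1 wild-type replicate 3 left out (edgeR adjusted p 0.0631 to 0.111). DESeq2 called PCDHB5 only, and gave adjusted p = 0.0558 for PCDHGC3, 0.0635 for PCDHA11, 0.104 for PCDHA7 and 0.129 for PCDHB15. With all 5 replicated groups in 1 model, PCDHB15 had an edgeR adjusted p of 0.0653. In the authors' deposited table for this clone, 2 members were called higher and 1 lower, with PCDHGC3 at a log2 fold change of -0.44 (adjusted p = 0.0442).

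The members that did not pass the test in H1 included the gamma leader. PCDHGA10 stood at 24.4, 26.4 and 24.99 CPM in clone 1-10, against 22.3, 25.9 and 22.5 CPM in H1 wild type, with overlapping groups and a log2 fold change of 0.09 (SE 0.09, edgeR adjusted p = 0.563). PCDHB2, the beta leader in H1 wild type, stood at 45.4, 48.6 and 44.9 CPM in clone 1-10, against 42.6, 41.7 and 46.6 CPM in wild type. Its log2 fold change was 0.08 (SE 0.07, edgeR adjusted p = 0.506). Among the C-type members the log2 fold change was -0.18 (SE 0.19, edgeR adjusted p = 0.591) for PCDHAC1, -0.03 (SE 0.16, edgeR adjusted p = 0.934) for PCDHAC2 and 0.31 (SE 0.18, edgeR adjusted p = 0.272) for PCDHGC4. PCDHGC5 stood at 0.4503, 1.17 and 0.633 CPM in clone 1-10, against 1.12, 0.6502 and 0.651 CPM in H1 wild type. The remaining members ran from -0.75 for PCDHB19P to 0.78 for PCDHGA3, neither called.

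**Figure D3:**
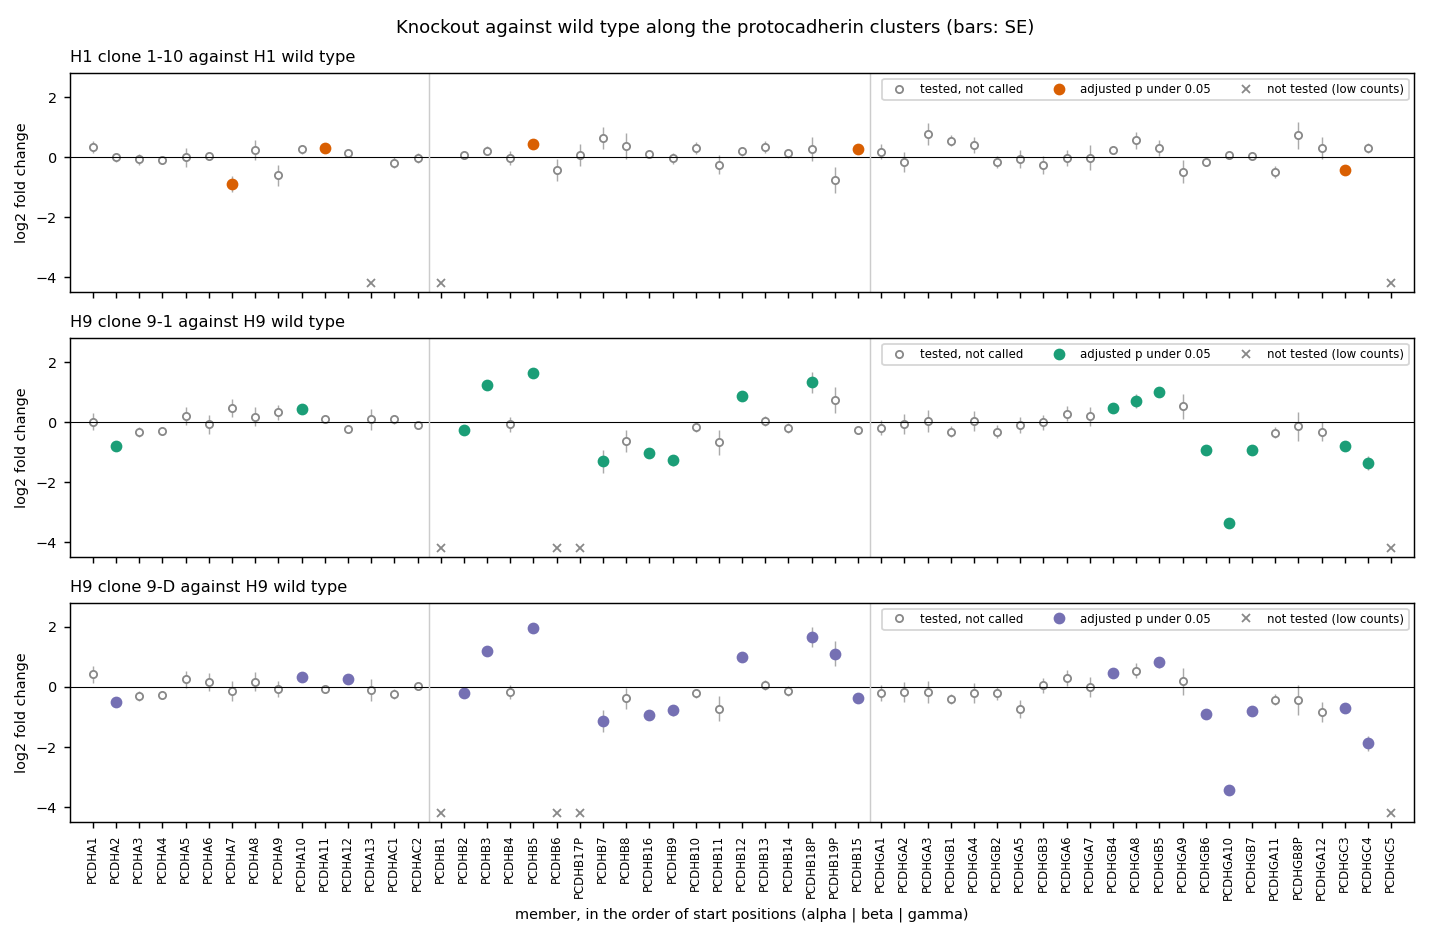
Log2 fold change of every tested member in order along the chromosome, for H1 clone 1-10, H9 clone 9-1 and H9 clone 9-D, each against the wild type of its line, with bars for the SE. Filled points passed an edgeR adjusted p under 0.05, crosses at the bottom edge were not tested, and in both H9 panels PCDHGB6, PCDHGA10 and PCDHGB7 lie under 0 next to PCDHGB4 and PCDHGB5 above it.

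In H9, members of all 3 clusters rose and fell in both clones, led by the fall of PCDHGA10 and the rise of PCDHB5. In clone 9-1, 8 members rose and 10 fell of 53 tested, or 34.0%, beside 26.3% of all 15411 genes tested. In clone 9-D, 9 rose and 11 fell of the same 53, or 37.7%, beside 23.5% of all genes. By direction, 12.8% of all genes rose and 13.5% fell in clone 9-1, and 11.5% rose and 12% fell in clone 9-D. The median log2 fold change of the members was -0.07 in clone 9-1 and -0.17 in clone 9-D, beside 0.00 and -0.01 over all genes. PCDHB1, PCDHB6, PCDHB17P and PCDHGC5 had counts too low to be tested. Both clones were compared with the same 3 wild-type libraries, so their values are given side by side and their likeness is no separate evidence.

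The gamma member PCDHGA10 had the largest change of all members in both clones. PCDHGA10 stood at 1.18, 1.72 and 1.42 CPM in clone 9-1 and at 1.41, 1.27 and 1.51 CPM in clone 9-D, against 15.1, 14.2 and 16.001 CPM in H9 wild type. The 6 clone libraries lay far below every wild-type library, and the means were 10.5-fold lower in clone 9-1 and 10.8-fold lower in clone 9-D. On the log2 scale the fold change was -3.36 in clone 9-1 (SE 0.17, edgeR adjusted p = 5.96e-18) and -3.43 in clone 9-D (SE 0.17, edgeR adjusted p = 4.70e-18). Its neighbours on either side fell as well. PCDHGB6 stood at 6.36, 7.34 and 6.09 CPM in clone 9-1 and at 6.78, 6.298 and 7.11 CPM in clone 9-D, against 12.8, 12.6 and 12.3 CPM in H9 wild type. PCDHGB7 stood at 10.8, 11.6 and 11.2 CPM in clone 9-1 and at 11.6, 13.2 and 11.5 CPM in clone 9-D, against 23.02, 20.5 and 20.1 CPM in H9 wild type. Neither member had a clone library inside the wild-type range. PCDHGB6 had a log2 fold change of -0.92 in clone 9-1 (SE 0.12, edgeR adjusted p = 2.95e-07) and -0.90 in clone 9-D (SE 0.12, edgeR adjusted p = 4.78e-07). That of PCDHGB7 was -0.92 in clone 9-1 (SE 0.10, edgeR adjusted p = 4.63e-09) and -0.82 in clone 9-D (SE 0.10, edgeR adjusted p = 5.79e-08). In the authors' deposited table, which took both H9 clones together, the log2 fold change of PCDHGA10 was -3.40, and 7 members were called higher and 11 lower.

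Just upstream in the same cluster, members rose. PCDHGB5 stood at 7.62, 6.82 and 5.38 CPM in clone 9-1 and at 5.26, 6.09 and 6.27 CPM in clone 9-D, against 2.71, 3.44 and 3.74 CPM in H9 wild type. No clone library reached down to the wild-type libraries, and the log2 fold change was 1.00 in clone 9-1 (SE 0.17, edgeR adjusted p = 3.25e-05) and 0.82 in clone 9-D (SE 0.18, edgeR adjusted p = 5.81e-04). PCDHGB4 stood at 15.8, 17.2 and 16.9 CPM in clone 9-1 and at 15.2, 15.9 and 18.6 CPM in clone 9-D, against 12.1, 11.3 and 12.4 CPM in H9 wild type. Again the groups did not overlap, and PCDHGB4, which led the gamma cluster in both clones, had a log2 fold change of 0.47 in clone 9-1 (SE 0.10, edgeR adjusted p = 6.57e-04) and 0.47 in clone 9-D (SE 0.10, edgeR adjusted p = 8.13e-04). PCDHGA8, which lies between these genes, stood at 2.96, 3.57 and 1.98 CPM in clone 9-1 and at 2.599, 2.26 and 2.89 CPM in clone 9-D, against 1.93, 1.92 and 1.47 CPM in H9 wild type. Its log2 fold change was 0.70 in clone 9-1 (SE 0.25, edgeR adjusted p = 0.0325) and 0.55 in clone 9-D (SE 0.25, edgeR adjusted p = 0.117), so that it passed in clone 9-1 only. The log2 fold change of clone 9-D over clone 9-1 was -0.16 (SE 0.23, edgeR adjusted p = 0.937) and not called. Since the annotated exons of PCDHGA8 and PCDHGB4 appear to overlap, the rises of these members may not be separate. The call on PCDHGA8 was lost with any 1 of clone 9-1 replicates 1 and 2 and H9 wild-type replicates 1 and 3 left out (edgeR adjusted p 0.05001 to 0.2697), its log2 fold change being 0.47 without clone 9-1 replicate 2, and DESeq2 gave adjusted p = 0.0941. PCDHGA9, between PCDHGB5 and PCDHGB6, was at 0.784 ± 0.0581 CPM in clone 9-1 and, in clone 9-D, 0.605 ± 0.224 CPM, against 0.539 ± 0.2596 CPM in H9 wild type, and did not pass in either clone. The 7 members PCDHGA1 to PCDHGA7 and PCDHGB1, PCDHGB2 and PCDHGB3, all upstream of PCDHGB4, also did not pass in either clone, with log2 fold changes between -0.73 (PCDHGA5, clone 9-D) and 0.30 (PCDHGA6, clone 9-D).

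PCDHGC3 and PCDHGC4, C-type genes at the downstream end of the gamma cluster, fell too. PCDHGC4 is the member that in mice keeps developing inhibitory neurons alive. PCDHGC4 stood at 2.37, 1.33 and 1.699 CPM in clone 9-1 and at 1.07, 1.34 and 1.27 CPM in clone 9-D, against 5.54, 4.19 and 3.68 CPM in H9 wild type. The groups did not overlap, and the log2 fold change was -1.35 in clone 9-1 (SE 0.24, edgeR adjusted p = 3.14e-05) and -1.87 in clone 9-D (SE 0.25, edgeR adjusted p = 3.81e-07). PCDHGC3 stood at 13.4, 14.3 and 14.3 CPM in clone 9-1 and at 15.8, 12.7 and 15.2 CPM in clone 9-D, against 23.6, 23.8 and 24.5 CPM in H9 wild type. Here again the clone libraries were all below wild type, with a log2 fold change of -0.78 in clone 9-1 (SE 0.10, edgeR adjusted p = 5.67e-08) and -0.72 in clone 9-D (SE 0.10, edgeR adjusted p = 3.03e-07). PCDHGC5, which was not tested, stood at 0.222, 0.0953 and 0.283 CPM in clone 9-1 and at 0, 0.142 and 0.301 CPM in clone 9-D, against 0.709, 0.206 and 0.4905 CPM in H9 wild type, close to the limit of 3 counts. The alpha C-type genes did not pass. PCDHAC1 was at 5.57 ± 0.305 CPM in clone 9-1 and, in clone 9-D, 4.46 ± 0.379 CPM, against 5.202 ± 0.599 CPM in H9 wild type, with a log2 fold change of 0.09 in clone 9-1 (SE 0.16, edgeR adjusted p = 0.724) and -0.22 in clone 9-D (SE 0.16, edgeR adjusted p = 0.347). PCDHAC2, which in mice spaces out the axons of serotonergic neurons, was at 10.8 ± 0.204 CPM in clone 9-1 and, in clone 9-D, 11.7 ± 1.41 CPM, against 11.5 ± 0.466 CPM in H9 wild type, with a log2 fold change of -0.09 in clone 9-1 (SE 0.11, edgeR adjusted p = 0.595) and 0.02 in clone 9-D (SE 0.11, edgeR adjusted p = 0.925).

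**Figure D4:**
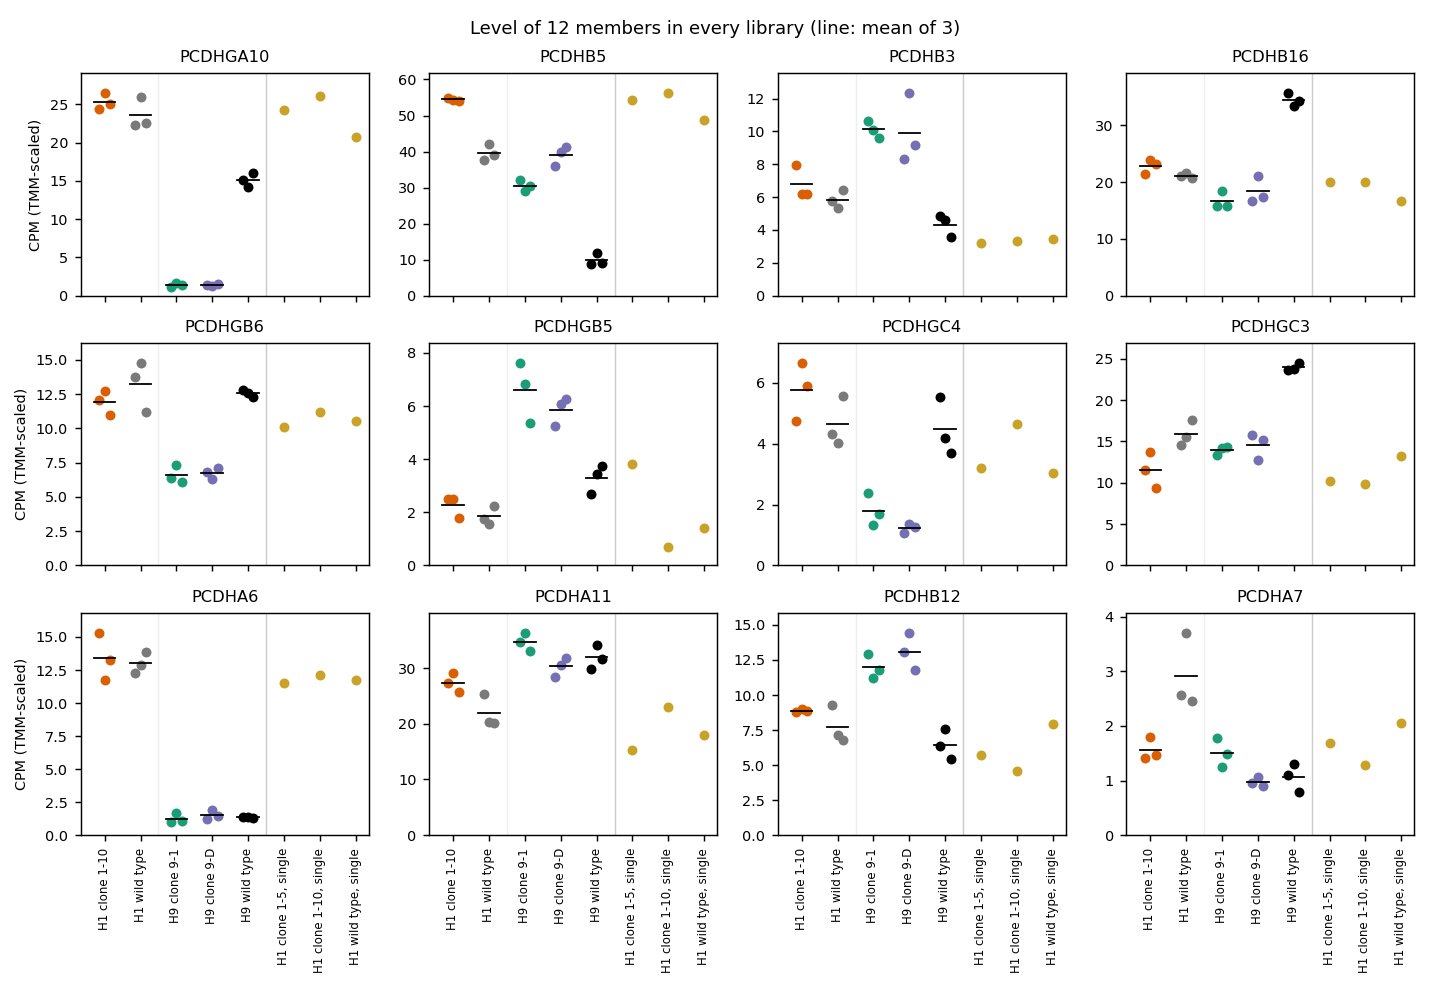
Level of 12 members in every library, in TMM-scaled CPM on a linear axis from 0, with 1 point per library and a line at the mean of 3. The single H1 libraries at the right were scaled apart from the other 15. PCDHGA10 and PCDHGC4 are low in clones 9-1 and 9-D, PCDHB5 is low in H9 wild type, and PCDHA6 is low in all 3 H9 groups.

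The beta cluster held the largest rise. PCDHB5 stood at 32.02, 29.1 and 30.4 CPM in clone 9-1 and at 35.9, 39.8 and 41.3 CPM in clone 9-D, against 8.77, 11.8 and 9.07 CPM in H9 wild type. The clone libraries lay well above wild type, 3.09-fold by their mean in clone 9-1 and 3.95-fold in clone 9-D. This was a log2 fold change of 1.62 in clone 9-1 (SE 0.10, edgeR adjusted p = 3.04e-15) and 1.98 in clone 9-D (SE 0.10, edgeR adjusted p = 6.13e-18). PCDHB3 stood at 10.6, 10.1 and 9.63 CPM in clone 9-1 and at 8.31, 12.3 and 9.16 CPM in clone 9-D, against 4.84, 4.61 and 3.56 CPM in H9 wild type. PCDHB12 stood at 12.9, 11.2 and 11.8 CPM in clone 9-1 and at 13.1, 14.4 and 11.8 CPM in clone 9-D, against 6.38, 7.56 and 5.46 CPM in H9 wild type. Both members were higher in every clone library than in any wild-type library. PCDHB3 had a log2 fold change of 1.22 in clone 9-1 (SE 0.15, edgeR adjusted p = 8.84e-08) and 1.18 in clone 9-D (SE 0.15, edgeR adjusted p = 2.10e-07). For PCDHB12 it was 0.88 in clone 9-1 (SE 0.13, edgeR adjusted p = 1.95e-06) and 1.01 in clone 9-D (SE 0.13, edgeR adjusted p = 1.22e-07).

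Other beta members fell, so that rises and falls were interspersed along the cluster. PCDHB16 stood at 15.8, 18.4 and 15.7 CPM in clone 9-1 and at 16.6, 21.02 and 17.4 CPM in clone 9-D, against 35.6, 33.3 and 34.3 CPM in H9 wild type. The groups did not overlap, and the log2 fold change was -1.04 in clone 9-1 (SE 0.09, edgeR adjusted p = 2.91e-11) and -0.92 in clone 9-D (SE 0.09, edgeR adjusted p = 5.17e-10). PCDHB9 stood at 1.996, 3.38 and 2.55 CPM in clone 9-1 and at 4.01, 3.96 and 3.56 CPM in clone 9-D, against 6.64, 5.84 and 7.17 CPM in H9 wild type. All clone libraries were below wild type, and the log2 fold change was -1.27 in clone 9-1 (SE 0.18, edgeR adjusted p = 1.34e-06) and -0.78 in clone 9-D (SE 0.17, edgeR adjusted p = 9.27e-04). PCDHB2, the most abundant beta member in H9, stood at 53.6, 53.3 and 48.998 CPM in clone 9-1 and at 55.8, 51.7 and 52.4 CPM in clone 9-D, against 60.9, 63.6 and 60.4 CPM in H9 wild type. All clone libraries were below all wild-type libraries. Its log2 fold change was -0.25 in clone 9-1 (SE 0.07, edgeR adjusted p = 0.00441) and -0.21 in clone 9-D (SE 0.07, edgeR adjusted p = 0.0167). PCDHB15 stood at 21.8, 23.98 and 22.7 CPM in clone 9-1 and at 17.4, 25.8 and 20.2 CPM in clone 9-D, against 28.3, 26.1 and 27.3 CPM in H9 wild type. It passed in clone 9-D only, with a log2 fold change of -0.26 in clone 9-1 (SE 0.10, edgeR adjusted p = 0.0523) and -0.38 in clone 9-D (SE 0.10, edgeR adjusted p = 0.00435). For PCDHB15 the log2 fold change of clone 9-D over clone 9-1 was -0.12 (SE 0.10, edgeR adjusted p = 0.866) and not called. The call on PCDHB2 was lost in clone 9-1 without clone 9-1 replicate 3 (edgeR adjusted p = 0.0511) and in clone 9-D with any 1 of clone 9-D replicate 2 and H9 wild-type replicate 2 left out (edgeR adjusted p 0.05798 to 0.09102). The call on PCDHB15 was lost without clone 9-D replicate 1 (edgeR adjusted p = 0.0791), where its log2 fold change was -0.24.

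Among the low beta members, PCDHB7 stood at 0.518, 0.334 and 0.991 CPM in clone 9-1 and at 0.791, 0.637 and 0.542 CPM in clone 9-D, against 1.68, 1.79 and 0.9196 CPM in H9 wild type. Clone 9-1 overlapped with wild type and clone 9-D did not. Its log2 fold change was -1.31 in clone 9-1 (SE 0.39, edgeR adjusted p = 0.0102) and -1.13 in clone 9-D (SE 0.38, edgeR adjusted p = 0.0251). The pseudogene PCDHB18P was higher in the clones, at 1.55, 2.002 and 1.27 CPM in clone 9-1 and, in clone 9-D, 2.15, 2.05 and 1.99 CPM, against 0.903, 0.756 and 0.307 CPM in H9 wild type. For it the log2 fold change was 1.33 in clone 9-1 (SE 0.35, edgeR adjusted p = 0.00357) and 1.65 in clone 9-D (SE 0.33, edgeR adjusted p = 2.51e-04). PCDHB19P, another pseudogene, stood at 0.518, 1.14 and 1.204 CPM in clone 9-1 and at 1.64, 0.991 and 1.15 CPM in clone 9-D, against 1.096, 0.344 and 0.307 CPM in H9 wild type, with overlap. It passed in clone 9-D only, at 1.11 (SE 0.41, edgeR adjusted p = 0.0465), and had 0.74 (SE 0.43) in clone 9-1. The call on PCDHB7 was lost in clone 9-1 with any 1 of clone 9-1 replicate 2 and H9 wild-type replicates 1 and 2 left out (edgeR adjusted p 0.0513 to 0.118) and in clone 9-D with any 1 of clone 9-D replicates 2 and 3 and H9 wild-type replicates 1 and 2 left out (edgeR adjusted p 0.0703 to 0.113), and DESeq2 gave adjusted p = 0.0910 in clone 9-D. The call on PCDHB18P was lost in clone 9-1 without clone 9-1 replicate 2 (edgeR adjusted p = 0.0505). That on PCDHB19P was lost with any 1 of clone 9-1 replicate 2, clone 9-D replicates 1 and 3 and H9 wild-type replicates 2 and 3 left out (edgeR adjusted p 0.0547 to 0.224), its log2 fold change was 1.94 without H9 wild-type replicate 1, and DESeq2 gave adjusted p = 0.129. In a model of all 5 replicated groups PCDHB19P had an edgeR adjusted p of 0.0588.

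In the alpha cluster 2 of 15 members were called in clone 9-1 (13.3%) and 3 of 15 in clone 9-D (20%). In the beta cluster 8 and 10 of 16 were called (50% and 62.5%), and in the gamma cluster 8 and 7 of 22 (36.4% and 31.8%). Of all genes tested, 26.3% were called in clone 9-1 and 23.5% in clone 9-D. PCDHA10 stood at 18.1, 20.3 and 20.1 CPM in clone 9-1 and at 18.6, 16.3 and 18.5 CPM in clone 9-D, against 12.9, 15.2 and 14.7 CPM in H9 wild type. The clone libraries were all above wild type, and the log2 fold change was 0.45 in clone 9-1 (SE 0.10, edgeR adjusted p = 6.39e-04) and 0.32 in clone 9-D (SE 0.10, edgeR adjusted p = 0.01601). PCDHA2 stood at 4.51, 5.005 and 4.11 CPM in clone 9-1 and at 5.09, 5.802 and 5.97 CPM in clone 9-D, against 8.51, 7.49 and 7.54 CPM in H9 wild type. The clone libraries of PCDHA2 were all below wild type, and the log2 fold change was -0.78 in clone 9-1 (SE 0.15, edgeR adjusted p = 1.06e-04) and -0.49 in clone 9-D (SE 0.14, edgeR adjusted p = 0.0112). PCDHA11, the alpha leader, did not pass, with a log2 fold change of 0.12 in clone 9-1 (SE 0.08, edgeR adjusted p = 0.277) and -0.08 in clone 9-D (SE 0.08, edgeR adjusted p = 0.518). PCDHA12 was the only member on which the clones were called different from each other, which made 1 of 53 members, or 1.9%, beside 0.305% of all genes (0.162% higher and 0.143% lower). It stood at 20.5, 18.3 and 18.5 CPM in clone 9-D, against 11.5, 14.6 and 13.7 CPM in clone 9-1, and at 14.8, 17.05 and 15.5 CPM in H9 wild type. Clone 9-D over clone 9-1 gave a log2 fold change of 0.52 (SE 0.10, edgeR adjusted p = 0.0090996), and clone 9-D over wild type 0.27 (SE 0.10, edgeR adjusted p = 0.0442). The difference between the clones was lost with any 1 of clone 9-1 replicate 1 and clone 9-D replicate 1 left out (edgeR adjusted p 0.0504 to 0.131). The call against wild type was lost with any 1 of clone 9-D replicate 1 and H9 wild-type replicates 1 and 3 left out (edgeR adjusted p 0.118 to 0.171), and DESeq2 gave adjusted p = 0.0968. The clone 9-D calls were lost for PCDHA10 with any 1 of clone 9-D replicate 1 and H9 wild-type replicate 1 left out (edgeR adjusted p 0.0546 to 0.112) and for PCDHA2 with any 1 of clone 9-D replicate 1 and H9 wild-type replicate 1 left out (edgeR adjusted p 0.0622 to 0.0663). The highest clone 9-1 library of PCDHA12 was below the lowest clone 9-D library. For the other 52 members a difference between the clones did not pass, and their log2 fold changes of clone 9-D over 9-1 ran from -0.63 (PCDHGA5) to 0.50 (PCDHB9). Against wild type, the members not called ran from -0.68 (PCDHB11) to 0.74 (PCDHB19P) in clone 9-1 and from -0.83 (PCDHGA12) to 0.55 (PCDHGA8) in clone 9-D.

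Whether the knockout effect in H9 differed from that in H1 was tested directly, as the effect of each H9 clone minus the effect of H1 clone 1-10 over all 15 replicated libraries. For clone 9-1 the difference passed for 15 of 56 members, or 26.8%, of which 4 were positive and 11 negative, beside 8.35% of all 15802 genes. For clone 9-D it passed for 13 of 56, or 23.2%, of which 3 were positive and 10 negative, beside 7.59% of all genes. By direction, 4.61% of all genes had a positive and 3.75% a negative difference for clone 9-1, and 4.56% and 3.03% for clone 9-D. Both differences rest on the same H1 and H9 wild-type libraries and on the same clone 1-10 libraries. PCDHB1 was not tested. The medians over the members were -0.20 for clone 9-1 and -0.11 for clone 9-D, beside 0.00 and -0.01 over all genes.

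On the log2 scale, the largest difference was that of PCDHGA10, at -3.45 (SE 0.18, edgeR adjusted p = 2.26e-18) for clone 9-1 and -3.52 (SE 0.18, edgeR adjusted p = 2.01e-18) for clone 9-D. Its level in H1 clone 1-10 was 25.3 ± 1.04 CPM, against 23.6 ± 2.05 CPM in H1 wild type. PCDHGC4 differed by -1.67 (SE 0.30, edgeR adjusted p = 1.13e-04) and -2.18 (SE 0.31, edgeR adjusted p = 2.20e-06), and stood at 4.76, 6.65 and 5.91 CPM in clone 1-10, against 4.33, 4.03 and 5.57 CPM in H1 wild type. PCDHGB6 differed by -0.77 (SE 0.17, edgeR adjusted p = 0.001697) and -0.75 (SE 0.17, edgeR adjusted p = 0.00224), and PCDHGB7 by -0.98 (SE 0.15, edgeR adjusted p = 6.51e-06) and -0.87 (SE 0.15, edgeR adjusted p = 3.94e-05). In H1, PCDHGB6 was at 11.9 ± 0.883 CPM in clone 1-10, against 13.3 ± 1.83 CPM in wild type, and PCDHGB7 at 14.9 ± 1.17 CPM in clone 1-10, against 14.2 ± 1.38 CPM in wild type. PCDHGB1, at 6.23 ± 1.36 CPM in clone 1-10, against 4.09 ± 0.929 CPM in H1 wild type, was called in neither line on its own and had differences of -0.88 (SE 0.27, edgeR adjusted p = 0.02996) for clone 9-1 and -0.96 (SE 0.27, edgeR adjusted p = 0.0166) for clone 9-D. The PCDHGB1 difference was lost for clone 9-1 with any 1 of clone 1-10 replicates 1 and 3, H1 wild-type replicate 3, clone 9-1 replicates 2 and 3 and H9 wild-type replicates 1 and 3 left out (edgeR adjusted p 0.0502 to 0.123) and for clone 9-D with any 1 of clone 1-10 replicate 3, H1 wild-type replicate 3 and clone 9-D replicate 3 left out (edgeR adjusted p 0.0638 to 0.0785). PCDHGC3 fell in all 3 clones, and its differences of -0.34 (SE 0.16) and -0.28 (SE 0.15) did not pass.

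In the beta cluster PCDHB5 rose in all 3 clones, and its log2 effect in H9 was larger than in H1 by 1.17 (SE 0.12, edgeR adjusted p = 2.84e-09) for clone 9-1 and 1.53 (SE 0.12, edgeR adjusted p = 1.63e-12) for clone 9-D. Positive differences also passed for PCDHB3, at 1.00 (SE 0.23, edgeR adjusted p = 0.00228) and 0.96 (SE 0.23, edgeR adjusted p = 0.00364), and for PCDHB12, at 0.68 (SE 0.19, edgeR adjusted p = 0.0181) and 0.81 (SE 0.19, edgeR adjusted p = 0.00376). Negative differences passed for PCDHB16, at -1.15 (SE 0.13, edgeR adjusted p = 1.08e-08) and -1.03 (SE 0.13, edgeR adjusted p = 1.32e-07). The H1 levels of PCDHB16 were 22.9 ± 1.301 CPM in clone 1-10, against 21.1 ± 0.4801 CPM in wild type. Those of PCDHB3 were 6.79 ± 1.03 CPM in clone 1-10, against 5.85 ± 0.559 CPM in wild type, and those of PCDHB12 8.88 ± 0.0843 CPM in clone 1-10, against 7.75 ± 1.35 CPM in wild type. PCDHB15 rose in clone 1-10 and fell in clone 9-D, and its difference was -0.53 (SE 0.14, edgeR adjusted p = 0.0108) and -0.66 (SE 0.14, edgeR adjusted p = 0.001398). PCDHB9 passed for clone 9-1, at -1.24 (SE 0.25, edgeR adjusted p = 7.25e-04), and had -0.74 (SE 0.25) for clone 9-D. PCDHB7 had -1.95 (SE 0.55, edgeR adjusted p = 0.0167) and -1.78 (SE 0.54, edgeR adjusted p = 0.0314), and PCDHB2 -0.33 (SE 0.10, edgeR adjusted p = 0.0192) and -0.30 (SE 0.10, edgeR adjusted p = 0.0452). The call for clone 9-1 was lost for PCDHB12 with any 1 of H1 wild-type replicate 1, clone 9-1 replicate 1 and H9 wild-type replicate 3 left out (edgeR adjusted p 0.0547 to 0.105), for PCDHB7 with any 1 of H1 wild-type replicate 3, clone 9-1 replicate 2 and H9 wild-type replicate 2 left out (edgeR adjusted p 0.0557 to 0.0903) and for PCDHB2 with any 1 of clone 1-10 replicate 2, H1 wild-type replicates 1 and 2 and clone 9-1 replicate 3 left out (edgeR adjusted p 0.0531 to 0.0728). For clone 9-D it was lost for PCDHB7 with any 1 of clone 1-10 replicates 2 and 3, H1 wild-type replicates 2 and 3, clone 9-D replicates 2 and 3 and H9 wild-type replicates 1 and 2 left out (edgeR adjusted p 0.0568 to 0.0934) and for PCDHB2 with any 1 of clone 1-10 replicates 1, 2 and 3, H1 wild-type replicates 1 and 2, clone 9-1 replicate 3, clone 9-D replicates 2 and 3 and H9 wild-type replicates 1, 2 and 3 left out (edgeR adjusted p 0.05096 to 0.121).

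In the alpha cluster PCDHA7 had a difference of 1.36 (SE 0.41, edgeR adjusted p = 0.0264) for clone 9-1 and PCDHA2 one of -0.78 (SE 0.21, edgeR adjusted p = 0.0146), while PCDHA11 had one of -0.41 (SE 0.12, edgeR adjusted p = 0.0312) for clone 9-D. The PCDHA7 difference was lost with any 1 of clone 1-10 replicate 1, H1 wild-type replicate 2, clone 9-1 replicates 1 and 3 and H9 wild-type replicate 3 left out (edgeR adjusted p 0.05103 to 0.103), the PCDHA2 difference without clone 1-10 replicate 2 (edgeR adjusted p = 0.07697) and the PCDHA11 difference with any 1 of clone 1-10 replicates 1 and 2, H1 wild-type replicates 2 and 3, clone 9-D replicate 1 and H9 wild-type replicates 2 and 3 left out (edgeR adjusted p 0.0537 to 0.115). With DESeq2, differences were no longer called for PCDHA7 (adjusted p = 0.0730), PCDHGB1 (0.0612) and PCDHB7 (0.0509) in clone 9-1, nor for PCDHA11 (0.0571), PCDHB2 (0.0610) and PCDHB7 (0.0899) in clone 9-D. For PCDHB2 in clone 9-D the edgeR adjusted p was 0.0503 with DESeq2's size factors and 0.0662 without a filter on low counts.

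**Figure D5:**
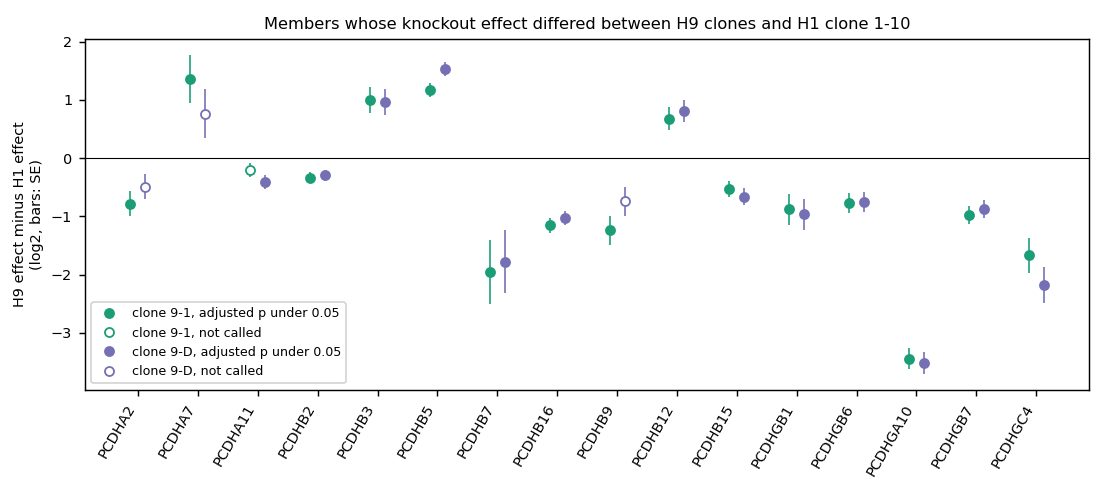
Effect of each H9 clone minus the effect of H1 clone 1-10, on the log2 scale with bars for the SE, for the 16 members called in at least 1 of the 2 differences. Filled points passed an edgeR adjusted p under 0.05, green is clone 9-1 and violet clone 9-D, and PCDHGA10 lies lowest at -3.45 and -3.52.

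The wild types of H9 and H1 also used the clusters differently. In H9 wild type 13 members were higher and 9 lower than in H1 wild type, or 39.3% of 56 tested, beside 52.7% of all 15802 genes, of which 27.1% were higher and 25.6% lower. Line and any batch of the H9 and H1 tables cannot be told apart, and the same H9 wild-type libraries enter the comparisons with clones 9-1 and 9-D. The largest difference was in PCDHA6. PCDHA6 stood at 1.35, 1.37 and 1.29 CPM in H9 wild type, against 12.3, 12.9 and 13.9 CPM in H1 wild type. Its mean was 9.72-fold lower in H9 wild type, with a log2 fold change of -3.28 (SE 0.19, edgeR adjusted p = 2.07e-18). PCDHB5 stood at 8.77, 11.8 and 9.07 CPM in H9 wild type, against 37.7, 42.003 and 39.01 CPM in H1 wild type. PCDHB5 was 4.01-fold lower by its mean, with a log2 fold change of -2.01 (SE 0.09, edgeR adjusted p = 3.17e-21). The level of PCDHB5 in clone 9-D, at 38.98 ± 2.79 CPM, was close to that in H1 wild type, at 39.6 ± 2.19 CPM.

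Of the other alpha members, PCDHA7 was at 1.096, 1.31 and 0.797 CPM in H9 wild type, against 2.56, 3.71 and 2.46 CPM in H1 wild type, with a log2 fold change of -1.46 (SE 0.28, edgeR adjusted p = 2.71e-05). PCDHA1 stood at 1.16, 1.92 and 1.72 CPM in H9 wild type, against 3.21, 3.45 and 3.91 CPM in H1 wild type. PCDHA1 had a log2 fold change of -1.14 (SE 0.24, edgeR adjusted p = 8.54e-05). Higher in H9 wild type were PCDHA10, at 1.09 (SE 0.12, edgeR adjusted p = 5.01e-10), PCDHAC2, at 0.89 (SE 0.13, edgeR adjusted p = 2.60e-07), PCDHA4, at 0.81 (SE 0.11, edgeR adjusted p = 1.06e-07), and PCDHA11, at 0.55 (SE 0.09, edgeR adjusted p = 1.64e-06). PCDHA10 stood at 12.9, 15.2 and 14.7 CPM in H9 wild type, against 6.17, 7.61 and 6.15 CPM in H1 wild type. PCDHAC2 stood at 11.7, 10.998 and 11.9 CPM in H9 wild type, against 6.81, 6.83 and 5.07 CPM in H1 wild type. PCDHA4 stood at 18.5, 15.9 and 16.6 CPM in H9 wild type, against 9.22, 9.62 and 10.1 CPM in H1 wild type. The groups did not overlap for any of these 6 members.

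Among beta members, PCDHB16 had a log2 fold change of 0.71 (SE 0.09, edgeR adjusted p = 9.23e-09), PCDHB2 of 0.50 (SE 0.07, edgeR adjusted p = 4.56e-08) and PCDHB15 of 0.50 (SE 0.10, edgeR adjusted p = 5.27e-05), all higher in H9 wild type. Low members were called in both directions, with PCDHB6 at -2.01 (SE 0.49, edgeR adjusted p = 6.23e-04), PCDHB17P at -1.06 (SE 0.46, edgeR adjusted p = 0.0488) and PCDHB7 at 0.91 (SE 0.37, edgeR adjusted p = 0.038003). PCDHB6 stood at 0.129, 0.412 and 0.307 CPM in H9 wild type, against 1.36, 1.04 and 1.09 CPM in H1 wild type. PCDHB17P stood at 0.645, 0.5499 and 0.123 CPM in H9 wild type, against 0.801, 0.845 and 1.09 CPM in H1 wild type. PCDHB7 stood at 1.68, 1.79 and 0.9196 CPM in H9 wild type, against 0.962, 0.7802 and 0.579 CPM in H1 wild type. The groups overlapped for PCDHB7 and did not for PCDHB6 and PCDHB17P. PCDHB3 had -0.43 (SE 0.17, edgeR adjusted p = 0.0311) and PCDHB10 0.49 (SE 0.18, edgeR adjusted p = 0.0194). The call was lost for PCDHB7 with any 1 of H1 wild-type replicates 2 and 3 and H9 wild-type replicates 1 and 2 left out (edgeR adjusted p 0.0801 to 0.145) and for PCDHB3 with any 1 of H1 wild-type replicates 1 and 3 and H9 wild-type replicate 3 left out (edgeR adjusted p 0.0538 to 0.182). It was lost for PCDHB10 without H1 wild-type replicate 2 (edgeR adjusted p = 0.146), and for PCDHB17P with any of 13 of the 15 libraries left out (edgeR adjusted p 0.0509 to 0.298), its log2 fold change being -0.60 without H9 wild-type replicate 3. DESeq2 gave adjusted p of 0.0502 for PCDHB3, 0.0642 for PCDHB10, 0.108 for PCDHB7 and 0.122 for PCDHB17P, and edgeR without a filter on low counts gave 0.0755 for PCDHB17P.

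In the gamma cluster PCDHGA10 was lower in H9 wild type. PCDHGA10 stood at 15.1, 14.2 and 16.001 CPM in H9 wild type, against 22.3, 25.9 and 22.5 CPM in H1 wild type. The groups did not overlap, and the log2 fold change was -0.64 (SE 0.10, edgeR adjusted p = 5.68e-07). PCDHGA9 was lower too, at -1.08 (SE 0.41, edgeR adjusted p = 0.0257). Higher in H9 wild type were PCDHGB5, at 0.83 (SE 0.23, edgeR adjusted p = 0.00206), PCDHGC3, at 0.59 (SE 0.10, edgeR adjusted p = 7.31e-06), PCDHGB7, at 0.58 (SE 0.10, edgeR adjusted p = 6.26e-06), and PCDHGB4, at 0.35 (SE 0.11, edgeR adjusted p = 0.008198). PCDHGC3 stood at 23.6, 23.8 and 24.5 CPM in H9 wild type, against 14.6, 15.5 and 17.6 CPM in H1 wild type. PCDHGB5 stood at 2.71, 3.44 and 3.74 CPM in H9 wild type, against 1.76, 1.56 and 2.24 CPM in H1 wild type. PCDHGA9 stood at 0.838, 0.412 and 0.368 CPM in H9 wild type, against 1.36, 1.37 and 0.724 CPM in H1 wild type. The groups overlapped for PCDHGA9 and did not for PCDHGC3 and PCDHGB5. The C-type members PCDHAC1 (0.27), PCDHGC4 (-0.05) and PCDHGC5 (-0.74) were not called (log2 fold change in parentheses). The PCDHGA9 call was lost with any 1 of H1 wild-type replicates 1 and 2 and H9 wild-type replicates 2 and 3 left out (edgeR adjusted p 0.0898 to 0.121) and with DESeq2 (adjusted p = 0.0699), and the PCDHGB4 call without H1 wild-type replicate 3 (edgeR adjusted p = 0.0504).

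The single H1 libraries allowed the heterozygous clone 1-5 to be set beside clone 1-10, with no test, since each group had 1 library. Ratios of a clone to the single wild-type library have exact intervals that cover counting error only. PCDHB5, called in the replicated clone 1-10, had a ratio of 1.12 (95% counting interval 0.999 to 1.25) in clone 1-5 and of 1.15 (95% counting interval 1.03 to 1.29) in clone 1-10. PCDHGC3 had 0.765 (95% counting interval 0.601 to 0.974) in clone 1-5 and 0.741 (95% counting interval 0.582 to 0.944) in clone 1-10, so that both intervals lay under 1. PCDHA11 had 0.849 (95% counting interval 0.695 to 1.04) in clone 1-5 and 1.28 (95% counting interval 1.07 to 1.54) in clone 1-10. PCDHA7 had 0.8202 (95% counting interval 0.436 to 1.54) and 0.623 (95% counting interval 0.313 to 1.22), and PCDHB15 1.26 (95% counting interval 1.03 to 1.53) and 1.21 (95% counting interval 0.989 to 1.47), in clones 1-5 and 1-10.

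PCDHGA10, which fell in the H9 clones, had a ratio of 1.17 (95% counting interval 0.985 to 1.39) in clone 1-5 and of 1.26 (95% counting interval 1.06 to 1.49) in clone 1-10. PCDHGB5 had 50 counts in clone 1-5 and 9 counts in clone 1-10, against 16 counts in the single wild-type library. Its ratio was 2.68 (95% counting interval 1.501 to 5.04) in clone 1-5, above 1, and 0.474 (95% counting interval 0.185 to 1.14) in clone 1-10, where the interval held 1. Among members with at least 20 counts over the pair of libraries, 3 of 42 in clone 1-5 and 3 of 43 in clone 1-10 differed at least 2-fold, beside 1.96% and 1.79% of all such genes. These were PCDHGB5 and PCDHGA12 in both clones, PCDHB11 in clone 1-5 and PCDHGA11 in clone 1-10. In the replicated libraries of clone 1-10, the mean level was 1.22 times that of H1 wild type for PCDHGB5 and 1.28 times for PCDHGA12, the opposite direction to the single library, and neither was called. In the single library of clone 1-5, PCDHA12 had a larger share of the alpha level than PCDHA11, with 20.8% against 18.25%, and 223 and 200 counts. The median log2 ratio of the members was 0.02 in clone 1-5 and 0.08 in clone 1-10.

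Regulators, partners and neighbours of the clusters were taken from lists chosen with earlier results of these data known. Of 27 tested regulators of the clusters, 3 rose and 3 fell in clone 1-10, 6 rose and 3 fell in clone 9-1, and 3 rose and 3 fell in clone 9-D. Of all genes tested, 12.3% were called in clone 1-10, 26.3% in clone 9-1 and 23.5% in clone 9-D, and these shares are the background of this list. The regulators' counts in the H9 clones were near that background. DNMT3L, a cofactor of the de novo DNA methyltransferases, was at 5.43 ± 1.28 CPM in clone 9-1 and, in clone 9-D, 6.19 ± 1.62 CPM, against 2.19 ± 0.134 CPM in H9 wild type, with a log2 fold change of 1.31 in clone 9-1 (SE 0.21, edgeR adjusted p = 1.15e-05) and 1.50 in clone 9-D (SE 0.21, edgeR adjusted p = 8.98e-07). DNMT3B, the methyltransferase that in mice methylates promoters of these clusters, had a log2 fold change of 0.21 in clone 1-10 (edgeR adjusted p = 4.38e-04) and of 0.42 in clone 9-1 (SE 0.06, edgeR adjusted p = 2.56e-07) and 0.41 in clone 9-D (SE 0.06, edgeR adjusted p = 4.36e-07). SMCHD1, a chromatin protein that in mice silences clustered protocadherins, had -0.26 in clone 9-1 (SE 0.07, edgeR adjusted p = 0.00375) and -0.33 in clone 9-D (SE 0.07, edgeR adjusted p = 4.48e-04) and -0.19 (SE 0.07, edgeR adjusted p = 0.0639) in clone 1-10, where it did not pass. CTCF had 0.18 (SE 0.05, edgeR adjusted p = 0.0222) in clone 1-10 and 0.18 in clone 9-1 (SE 0.06, edgeR adjusted p = 0.0199) and 0.11 in clone 9-D (SE 0.06, edgeR adjusted p = 0.17004), the last not called. STAG2, a cohesin subunit, rose by 0.30 and 0.31 in clones 9-1 and 9-D. The CTCF call was lost in clone 1-10 with any 1 of clone 1-10 replicates 1 and 3 and H1 wild-type replicates 1 and 3 left out (edgeR adjusted p 0.0594 to 0.137) and in clone 9-1 with any 1 of clone 9-1 replicates 1 and 3 and H9 wild-type replicate 1 left out (edgeR adjusted p 0.0554 to 0.123). ZNF263 itself had -0.27 (SE 0.08, edgeR adjusted p = 0.0156) in clone 1-10 and -0.23 in clone 9-1 (SE 0.07, edgeR adjusted p = 0.0157) and -0.23 in clone 9-D (SE 0.07, edgeR adjusted p = 0.0204). The ZNF263 calls were lost in clone 1-10 with any 1 of clone 1-10 replicate 1 and H1 wild-type replicate 2 left out (edgeR adjusted p 0.0545 to 0.0971), in clone 9-1 with any 1 of clone 9-1 replicate 3 and H9 wild-type replicate 2 left out (edgeR adjusted p 0.0647 to 0.0904) and in clone 9-D with any 1 of clone 9-D replicates 1 and 2 and H9 wild-type replicates 2 and 3 left out (edgeR adjusted p 0.0615 to 0.0851).

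Of 21 tested protocadherins outside the clusters and related large cadherins, 2 rose and 3 fell in clone 1-10, 4 rose and 8 fell in clone 9-1, and 3 rose and 6 fell in clone 9-D, beside the same 12.3%, 26.3% and 23.5% of all genes. PCDH10, a protocadherin of developing forebrain circuits, fell in clone 1-10, at -0.77 (SE 0.15, edgeR adjusted p = 5.16e-04), and rose in the H9 clones, at 0.39 in clone 9-1 (SE 0.14, edgeR adjusted p = 0.0317) and 0.50 in clone 9-D (SE 0.14, edgeR adjusted p = 0.00662). The PCDH10 call was lost in clone 9-1 with any 1 of clone 9-1 replicate 3 and H9 wild-type replicate 3 left out (edgeR adjusted p 0.228 to 0.396) and in clone 9-D with any 1 of clone 9-D replicate 1 and H9 wild-type replicate 3 left out (edgeR adjusted p 0.0641 to 0.0761). PCDH19, a protocadherin linked to epilepsy, rose in the H9 clones, at 0.63 in clone 9-1 (SE 0.19, edgeR adjusted p = 0.0101) and 1.18 in clone 9-D (SE 0.18, edgeR adjusted p = 2.91e-06), and this call was lost in clone 9-1 without clone 9-1 replicate 2 (edgeR adjusted p = 0.0641). FAT4, a receptor of planar cell polarity, rose by 0.64 and 0.65 in clones 9-1 and 9-D, and FAT1 and FAT2 fell in both clones. Of 19 intracellular partners and processing enzymes, none rose and 2 fell in clone 1-10, 3 rose and 2 fell in clone 9-1, and 1 rose and 2 fell in clone 9-D. The count in clone 9-1 was at the 26.3% of all genes, and those in clones 1-10 and 9-D were no higher than the 12.3% and 23.5% there. ABI1, a subunit of the WAVE complex that binds protocadherin tails, rose by 0.34 in clone 9-1 and 0.29 in clone 9-D.

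Of the genes that flank the clusters on chromosome 5, 3 rose and 2 fell of 30 tested in clone 1-10, and 2 rose and 4 fell of 31 tested in each H9 clone, beside 12.3%, 26.3% and 23.5% of all genes in clones 1-10, 9-1 and 9-D. Whether these counts differ from those of all genes was not tested. ARAP3, a GTPase-activating protein, fell by 0.52 in clone 9-1 and by 0.59 in clone 9-D, and GNPDA1, a glucosamine-phosphate deaminase, rose by 0.43 and 0.36 (log2 fold change, edgeR adjusted p under 0.05). The median log2 fold change of the flanking genes was 0.04 in clone 1-10, -0.04 in clone 9-1 and 0.00 in clone 9-D.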

How the data were processed

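The authors deposited raw counts per gene symbol, per the file headers. The submitters' processing notes name STAR, featureCounts, DESeq2 and the build hg19; versions, annotation, strand and the handling of multi-mapped reads are not given in the sources used here. The authors' deposited tables give log2 fold changes and adjusted p-values from DESeq2, used for the values credited to them.

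Counts were tested with edgeR 4.0.16 in R 4.3.3 (quasi-likelihood F test, TMM scaling, filterByExpr, Benjamini-Hochberg adjustment over all genes tested, threshold 0.05, two-sided). H1 clone 1-10 and H1 wild type made 1 model, the 3 H9 groups another, and all 5 replicated groups the one for differences of effects and for H9 against H1 wild type. DESeq2 1.42.0, other size factors, no filter, a replicate block and leaving out each library were alternatives. The procedure was tested on simulated data. Levels are TMM-scaled CPM, with the 3 single libraries scaled apart. Shares are CPM per base of coding sequence specific to a member (GENCODE, GRCh38), used for lengths only, since the counts rest on hg19. Depth was 9663550 to 21007799 counts, and intervals and the limit of 3 counts cover counting error only.

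Members and lists were chosen with earlier results of these data known. Named are called members (up to 12 with the largest change per comparison, others more briefly), the C-type members, the leader of each cluster, and from the lists the called genes with the largest change and CTCF, SMCHD1, DNMT3B and ZNF263. PCDHA1, PCDHA4 and some members not called are named after their values were seen, as the ends of ranges or neighbours. The authors' comparisons of single libraries were not used.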

Additional observations from a re-analysis of the deposited data

Results flagged for a closer look

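In 29 results, groups differed by a test of the difference itself (edgeR adjusted p under 0.05), all of them given with SE and p above. PCDHA12 was higher in clone 9-D than in clone 9-1, by 0.52 on the log2 scale. The other 28 are effects of an H9 clone minus the effect of H1 clone 1-10, over 16 members.

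For clone 9-1 the difference was -3.45 in PCDHGA10, -1.67 in PCDHGC4, -0.98 in PCDHGB7, -0.88 in PCDHGB1 and -0.77 in PCDHGB6. In beta members it was -1.95 in PCDHB7, -1.24 in PCDHB9, -1.15 in PCDHB16, -0.53 in PCDHB15 and -0.33 in PCDHB2, and 1.17 in PCDHB5, 1.00 in PCDHB3 and 0.68 in PCDHB12. In alpha members it was 1.36 in PCDHA7 and -0.78 in PCDHA2.

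For clone 9-D the difference was -3.52 in PCDHGA10, -2.18 in PCDHGC4, -0.96 in PCDHGB1, -0.87 in PCDHGB7 and -0.75 in PCDHGB6. In beta members it was -1.78 in PCDHB7, -1.03 in PCDHB16, -0.66 in PCDHB15 and -0.30 in PCDHB2, and 1.53 in PCDHB5, 0.96 in PCDHB3 and 0.81 in PCDHB12. In the alpha member PCDHA11 it was -0.41.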

How the results depend on the processing

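No call on a member changed sign under any alternative. Calls held in every alternative for 14 of 18 members in clone 9-1, 13 of 20 in clone 9-D, 1 of 5 in clone 1-10 (PCDHB5), 0 of 1 between the H9 clones, 9 of 15 and 9 of 13 for the differences of effects, and 16 of 22 between the wild types. The 5 calls in clone 1-10 became 1 with DESeq2. Between clones 9-D and 9-1 the count of 1 became 2 without a filter on low counts and 2 with all 5 groups in 1 model; without clone 9-1 replicate 1 it was 0. Leaving out each library gave 1 to 5 called members in clone 1-10, 16 to 20 in clone 9-1, 15 to 20 in clone 9-D, 0 to 2 between the H9 clones, 12 to 15 and 10 to 14 for the differences of clones 9-1 and 9-D, and 19 to 22 between the wild types. The cause was not tested. The leading shares moved by less than 1 SD without division by length. This check could hardly move them, since the coding bases specific to a member differed little. They were 2367 to 2652 in alpha, 2328 to 2454 in beta and 2409 to 2634 in gamma. Exon bases specific to a member ran in alpha from 2011 in PCDHA12 to 10574 in PCDHA4, and division by them was not tried.

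Deviations of same-numbered replicates from their group means had correlations of 0.046, 0.119 and 0.036 in H1, against -0.107 to 0.059 for different numbers. In H9 they were -0.031 to 0.063, against -0.072 to 0.05 for different numbers. Such weak correlations do not settle whether the numbers pair the libraries. With the replicate number as a block, edgeR called 6 members in clone 1-10, 19 in clone 9-1, 19 in clone 9-D, 1 between the H9 clones, 15 and 13 for the differences and 22 between the wild types, and PCDHB19P in clone 9-D had adjusted p = 0.0524. Depth limits PCDHB1 and PCDHGC5, whose counts were near 3 per library in the H9 clones.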
